A study of Mus musculus with 18 samples.

Results

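Expression was compared between knockout and wild-type cells labelled as reserve long-term haematopoietic stem cells (LT-HSC), as 3 KO Reserve and 3 WT Reserve libraries out of 18 in the series. All 6 libraries carrying the reserve label were taken, by their titles, and the comparison runs over all genes. The series profiled LT-HSC sorted from mouse bone marrow by RNA-seq, in 6 groups of 3 libraries. The design text gives 1 gate for the whole series, Lineage-, Sca-1+, c-Kit+, CD34-, Flk2- and CD49b-low, and does not say how reserve cells were set apart. WT Reserve came from wild-type mice and KO Reserve from DERARE knockout mice, which lack a retinoic acid response element located distal to the Hoxb genes. The groups without the reserve label used beside them are WT (genotype field "wild type") and KO Ctrl (genotype field "knockout wt control"), 3 libraries each, and none of these 4 groups carries a Wnt5a label. The KO Reserve titles name a knockout, while their genotype field reads "wild type reserve ko", and that of WT Reserve "wild type reserve". Age and sex of the mice are not given in the sources used here, nor is it said whether each replicate is its own mouse. The p-values therefore reflect variation among libraries, part of which may be technical. Group names follow the labels throughout, and no value in the table checks the genotype. AA465934 and Eif5al3-ps, described last, do not follow the order of the genotype labels, and if the labels of the reserve groups were exchanged, every difference between KO Reserve and WT Reserve given here would change sign.

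LT-HSC are the rare bone marrow cells that can rebuild all blood lineages after transplantation. Most of them rest outside the cell cycle, and the reserve fraction is the part held to be the most deeply resting. Retinoic acid acts through nuclear receptors that bind response elements in DNA, and several such elements control the Hox clusters, whose homeodomain factors set the identity of stem and progenitor cells. The DNA element that was deleted makes no transcript of its own, and its loss cannot be checked in an expression table.

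Values are FPKM, a fragment count corrected for transcript length and library depth. The steps between low values imply 21000000 to 29900000 fragments per reserve library, at which 3 fragments on a 1 kb transcript equal 0.1 to 0.143 FPKM. Differences are given on the log2(FPKM + 1) scale, KO Reserve minus WT Reserve, with the standard error (SE) from limma, and they understate the change of genes at low levels. Calls used limma with a Benjamini-Hochberg adjusted p under 0.05, over the 12738 genes that reached 1 FPKM in 3 or more of the 6 libraries. Pearson correlations of the log2 values were 0.94 to 0.964 between replicates and 0.896 to 0.928 between groups. The first principal component, with 46.8% of the variance, separated KO Reserve from WT Reserve.

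Of the genes tested 30.3% were called, 1056 of them higher in KO Reserve (8.29%) and 2803 lower (22%), and the median of all genes stood at -0.17. Quantile normalization, which gives every library the same distribution, moved that median to 0.05 and the split to 1944 higher (15.3%) and 1830 lower (14.4%). On both scales 974 genes were higher (7.65%) and 1780 lower (14%), and no gene was called in opposite directions. The values of the groups did not overlap, in either direction, for 6044 genes (47.4%). Falls were more often large: 1320 genes fell by at least 1 on the log2 scale and 172 rose by as much. Highly expressed genes went the other way, since among the 702 genes with the highest means 274 were higher and 65 lower, with a median of 0.30, and 196 and 103 with a median of 0.12 after quantile normalization. Without KO Reserve replicate 2 the totals fell to 421 higher and 1781 lower, and without WT Reserve replicate 3 to 625 and 1678. Leaving out WT Reserve replicate 1 gave 683 and 1796, and leaving out KO Reserve replicate 3 gave 494 and 1814.

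**Figure D1:**
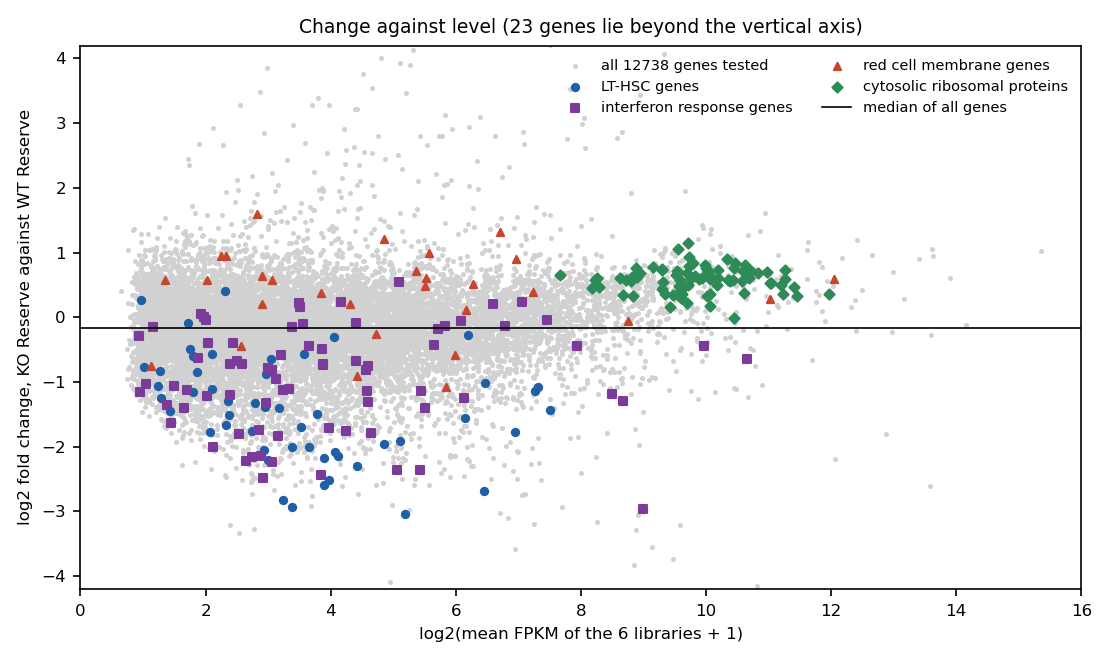
Log2 fold change (KO Reserve against WT Reserve) of each of the 12738 genes tested against log2 of its mean FPKM over the 6 libraries plus 1, with 4 gene lists coloured and a line at the median of all genes. LT-HSC and interferon genes lie mostly below the line and ribosomal protein genes above it at high levels, and 23 genes lie beyond the vertical limit of 4.2.

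The label LT-HSC was checked against markers before any other result, and markers of neutrophils and red cells summed to far higher levels. The 7 LT-HSC markers, among them Procr, Slamf1, Hlf, Mecom, Fgd5 and Tek, were present in all 6 libraries and lower in KO Reserve. Fgd5 and Tek passed the filter only through WT Reserve, so no test is given for them. The others were called by limma. Their summed level was 108.3, 86.1 and 80.8 FPKM in WT Reserve and 14.9, 18.5 and 16.6 in KO Reserve. Outside the reserve set, WT summed to 200.6 to 240.3 FPKM and KO Ctrl to 168 to 192.9. Both reserve groups read below WT and KO Ctrl on these markers, and KO Reserve below WT Reserve in every library.

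Transcripts of other blood cells were abundant in the reserve libraries, and most of them also differed between the groups. The neutrophil granule genes Ltf, Camp, Ngp, S100a9 and S100a8 had a summed level of 4002, 4971 and 10070 FPKM in WT Reserve and 2204, 3284 and 2464 in KO Reserve, against at most 3.04 in WT. The groups did not overlap, the exact two-sided permutation test gave p = 0.1, the smallest that 3 libraries against 3 allow, and none of the 5 was called alone. Erythroid markers went the other way, with Klf1, Car1 and Epor among the genes called higher and a sum of 3391, 4703 and 3981 FPKM in WT Reserve and 6326, 5996 and 5317 in KO Reserve, where WT had 13.84 to 18.01. Of 4 monocyte markers tested Ly6c2 and Ccr2 were lower. In the dendritic, T and NK, and mast cell sets 2 markers each were tested and 1 was lower, namely Ly6d, Thy1 and Cpa3. Ly6d is also in the list of B lymphoid genes, and the other dendritic marker tested, Siglech, was not called by limma (adjusted p = 0.0684). Prss34 was listed at 0 in all 6 libraries. Of the B cell markers Cd79a and Cd79b were lower, and the 6 summed to 581.5, 3173 and 673.2 FPKM in WT Reserve and 1234, 1451 and 677.4 in KO Reserve, overlapping sums in which Igkc alone reached 2555 in WT Reserve replicate 2. Megakaryocyte markers were at 156.6 to 160.9 FPKM in WT Reserve and 64.6 to 116 in KO Reserve, far below the 20700 to 30530 of WT. In such pooled RNA, fewer cells of a type and less RNA per cell cannot be told apart, and the part of other cells in each result below was not tested beyond the values given. With the log2 sum of the neutrophil transcripts as a covariate, which itself separates the groups, 54 genes were higher and 417 lower.

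**Figure D2:**
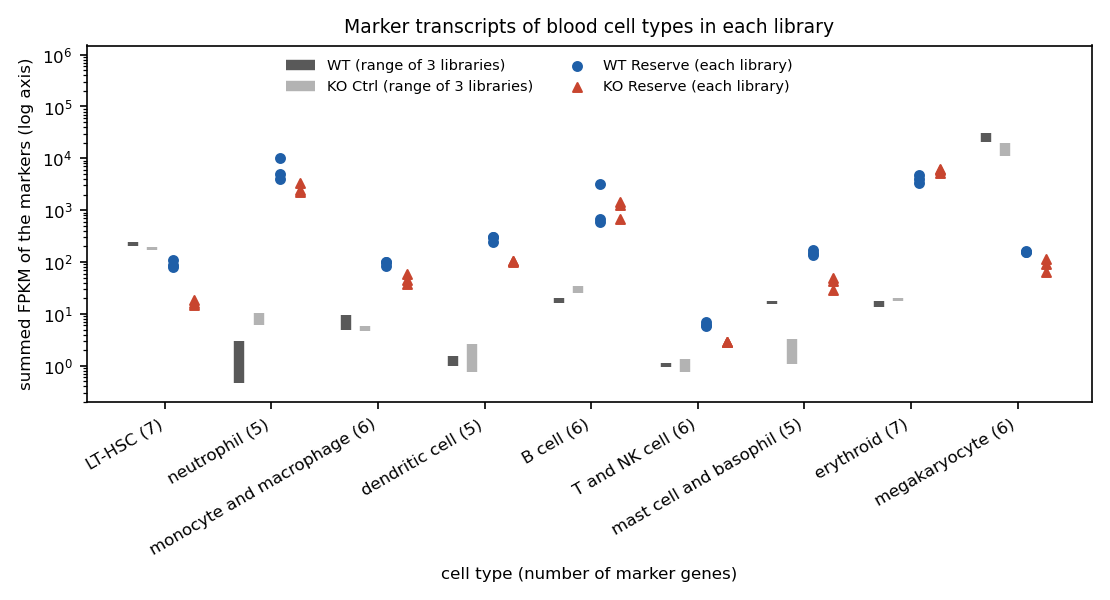
Summed FPKM of each marker set on a log axis, with 1 point per library for WT Reserve and KO Reserve and bars for the range of 3 libraries in WT and KO Ctrl. LT-HSC sums are 80.8 to 108.3 in WT Reserve and 14.9 to 18.5 in KO Reserve, erythroid sums are higher in KO Reserve, and B cell sums overlap.

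Of the genes of the sort gate 3 differed strongly, although the design text gives 1 gate for the whole series. Ly6a, which encodes Sca-1, read 169, 191 and 95.5 FPKM in WT Reserve and 20.2, 20.1 and 25.3 in KO Reserve (log2 difference -2.69, SE 0.25, adjusted p = 0.00046). Cd34, a sialomucin of progenitors that the gate selects against, read 64.1, 68.3 and 70.8 FPKM in WT Reserve and 14.6, 9.09 and 8.30 in KO Reserve (log2 difference -2.60, SE 0.21, adjusted p = 0.000259). Flt3, the receptor also called Flk2 and likewise gated out, read 18.7, 12.4 and 15.5 FPKM in WT Reserve and 3.83, 3.99 and 3.98 in KO Reserve (log2 difference -1.73, SE 0.18, adjusted p = 0.000668). These 3 genes did not overlap between the groups, and they stayed lower in KO Reserve when any 1 library was left out and with the neutrophil covariate. Kit, the stem cell factor receptor, overlapped at 31.6, 27.04 and 27.8 FPKM in WT Reserve and 28.3, 30.6 and 29.6 in KO Reserve (log2 difference 0.04, SE 0.14, adjusted p = 0.866). Itga2, which encodes CD49b, was at or below 0.042 FPKM in all 6 libraries and was not tested. Of 9 tested genes for antigens of common lineage cocktails, 1 was higher (not called without WT Reserve replicate 1 or 3) and 4 lower, led by the leukocyte phosphatase gene Ptprc (log2 difference -1.05, SE 0.14, adjusted p = 0.00138).

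Hoxb genes, the cluster next to DERARE, were low in both groups. Hoxb2 was the only one of 12 Hoxb genes and antisense transcripts to pass the filter, at 2.16, 1.94 and 1.17 FPKM in WT Reserve and 0.674, 1.45 and 1.43 in KO Reserve. Its values overlapped between the groups (log2 difference -0.34, SE 0.24, adjusted p = 0.314). Hoxb5 and its antisense transcript Hoxb5os were below the filter and were not tested between the reserve groups. Their values did not overlap between these groups, as held for 47.4% of all genes tested. Hoxb5 read 0.957, 0.544 and 0.76 FPKM in WT Reserve and 0.255, 0.112 and 0.192 in KO Reserve. Hoxb5os read 1.89, 0.88 and 0.596 FPKM in WT Reserve and 0.439, 0.155 and 0.165 in KO Reserve, and reads of the pair cannot be separated without strand. The other Hoxb genes overlapped, and Hoxb13 was listed at 0 in all 6 libraries. In the limma fit over all 18 libraries Hoxb5os passed the filter. Its reserve difference minus that between KO Ctrl and WT was -1.33 (SE 0.29, adjusted p = 0.00229), with means of 1.20 FPKM in WT and 2.36 in KO Ctrl. Of 34 genes tested within 1 Mb of the cluster 5 were higher and 6 lower, a share close to the 30.3% called among all genes. Hoxa genes, which drive self-renewal of stem and progenitor cells, differed more: 4 of 6 tested were lower on both scales, with a list median of -1.09. Hoxa9 read 30.5, 26.6 and 21.4 FPKM in WT Reserve and 6.54, 5.40 and 4.35 in KO Reserve (log2 difference -2.08, SE 0.20, adjusted p = 0.00046), and Hoxa10 read 8.53, 5.90 and 4.83 FPKM in WT Reserve and 1.14, 1.35 and 1.85 in KO Reserve (log2 difference -1.58, SE 0.23, adjusted p = 0.00213). Hoxa7 (log2 difference -0.99) and Hoxa5 (log2 difference -0.83) were lower too, while the antisense transcripts Hotairm1 and Hoxaas3 were not called (adjusted p = 0.195 and 0.959). Hoxa5 was not called without WT Reserve replicate 1 or KO Reserve replicate 2.

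Of 15 retinoid genes tested, 2 were higher and 5 lower, with a median of -0.40, where 8.29% and 22% of all genes were called. Rxrg, a retinoid X receptor, read 11.8, 6.44 and 8.03 FPKM in WT Reserve and 0.995, 2.60 and 0.66 in KO Reserve (log2 difference -2.06, SE 0.32, adjusted p = 0.00286). The retinol dehydrogenases Rdh11 (log2 difference -0.90) and Dhrs3 (log2 difference -0.84, adjusted p = 0.0223, not called after quantile normalization) were lower. Dhrs3 lost its call without WT Reserve replicate 1, WT Reserve replicate 3 or KO Reserve replicate 3. Aldh1a3, which makes retinoic acid, rose from a low level, with 2.03, 1.78 and 2.62 FPKM in WT Reserve and 3.77, 5.32 and 5.37 in KO Reserve (log2 difference 0.88, SE 0.20, adjusted p = 0.0129). Leaving out WT Reserve replicate 1 or KO Reserve replicate 3 left 3 falls, near the share over all genes, and neither rise was called without KO Reserve replicate 2 or 3.

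Genes that characterize LT-HSC were lower with few exceptions. Of 53 tested, 45 were lower and none higher, with a median of -1.44 beside -0.17 for all genes, and 43 were also lower after quantile normalization. Procr, also known as EPCR, a surface marker of LT-HSC, read 21.1, 15.7 and 15.6 FPKM in WT Reserve and 1.42, 1.65 and 1.19 in KO Reserve (log2 difference -2.92). Mecom, which encodes the zinc finger factor Evi1 needed for LT-HSC maintenance, read 11.9, 11.8 and 10.1 FPKM in WT Reserve and 1.95, 1.82 and 2.15 in KO Reserve (log2 difference -2.04, SE 0.16, adjusted p = 0.000259). Ndn, necdin, a growth suppressor of resting stem cells, read 16.9, 17.8 and 12.05 FPKM in WT Reserve and 1.31, 1.21 and 1.45 in KO Reserve. In each of these genes every KO Reserve value lay below every WT Reserve value. The count of falls ran from 37 to 42 when 1 library was left out and was 30 with the neutrophil covariate, where the median was -1.67. Outside the reserve set the same list had a median genotype difference of 0.04.

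Stem cell transcription factors were lower in part. Of 31 tested, 15 were lower and 1 higher, with a median of -0.64, and after quantile normalization 13 were lower and 5 higher. Meis1, a Hox cofactor, read 55.5, 54.8 and 50.1 FPKM in WT Reserve and 15.2, 14.7 and 10.7 in KO Reserve (log2 difference -1.92, adjusted p = 0.000337). Hlf, a bZIP factor of LT-HSC, read 13.95, 12.6 and 9.71 FPKM in WT Reserve and 1.35, 2.11 and 2.03 in KO Reserve. The homeobox gene Hhex (89.2, 86.9 and 83.9 FPKM in WT Reserve and 50.0, 40.8 and 32.0 in KO Reserve) and the Ets family gene Etv6 (17.5, 13.98 and 14.5 FPKM in WT Reserve and 6.29, 7.97 and 6.71 in KO Reserve) were lower by 1.09 and 1.03 on the log2 scale. The rise was Tal1, the SCL factor that stem cells share with the red cell lineage, at 11.8, 12.7 and 8.74 FPKM in WT Reserve and 18.04, 21.5 and 30.1 in KO Reserve (log2 difference 0.99, SE 0.22, adjusted p = 0.0127).

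**Figure D3:**
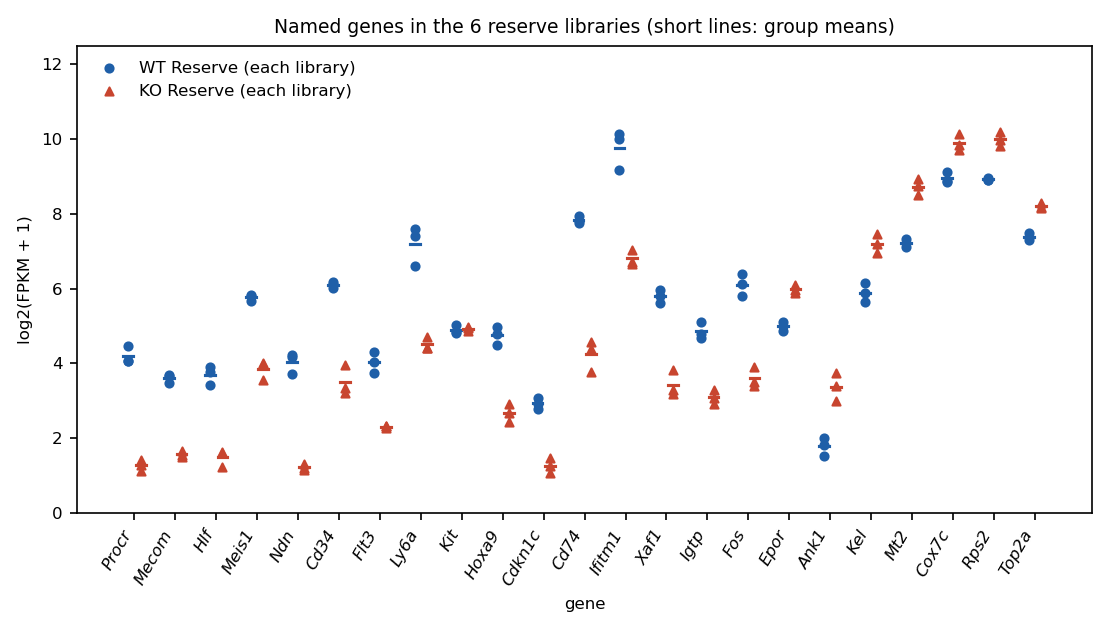
Levels of named genes as log2(FPKM + 1), with 1 point per library for WT Reserve and KO Reserve and short lines at the group means. From Procr to Fos all 3 KO Reserve points lie below all 3 WT Reserve points except for Kit, which overlaps, and from Epor to Top2a they lie above.

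Multipotent progenitor genes were lower almost throughout, 20 of 24 tested on both scales and none higher, with a median of -1.31. Cd27, a TNF receptor family member, read 81.6, 68.2 and 68.4 FPKM in WT Reserve and 19.7, 12.9 and 15.3 in KO Reserve. Lsp1, a leukocyte actin-binding protein, read 289.6, 257 and 246 FPKM in WT Reserve and 66.6, 57.4 and 42.8 in KO Reserve (log2 difference -2.25, SE 0.17, adjusted p = 0.000219). Adgrl4, an adhesion receptor also known from endothelium, read 39.9, 36.5 and 33.4 FPKM in WT Reserve and 7.87, 7.70 and 4.28 in KO Reserve (log2 difference -2.34, SE 0.22, adjusted p = 0.000461). The groups were apart in each of these genes, and 19 or 20 of the 24 were lower when any 1 library was left out, while 12 were with the neutrophil covariate, at a median of -1.49. Among 34 cytokine receptor genes 21 were lower and 1 higher (median -0.77), and among 33 adhesion and niche genes likewise 21 and 1 (median -0.92). Receptors that fell included Il21r (log2 difference -1.57) and Tnfrsf1a, the TNF receptor that carries a death domain (14.999, 10.99 and 11.5 FPKM in WT Reserve and 2.96, 3.18 and 3.73 in KO Reserve). F11r, the junctional adhesion molecule A, read 14.6, 15.7 and 10.8 FPKM in WT Reserve and 1.34, 1.71 and 0.876 in KO Reserve (log2 difference -2.67, SE 0.21, adjusted p = 0.000259), and Esam, an endothelial adhesion molecule found on stem cells, read 26.4, 22.9 and 23.3 FPKM in WT Reserve and 2.64, 2.16 and 5.42 in KO Reserve (log2 difference -2.58, SE 0.26, adjusted p = 0.000549). The rise among the receptors was Epor, the erythropoietin receptor. Without WT Reserve replicate 1 the falls came to 12 in each of these last lists, and without WT Reserve replicate 3 to 13 in each.

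Quiescence genes, which hold stem cells out of the cell cycle, were lower in 20 of 28 tested and higher in none (median -1.01). Egr1, Ier2 and Zfp36, among the members with the smallest p, are also in the list of immediate early genes. Egr1 is in the LT-HSC list as well, so the counts of these lists are not separate results. Cdkn1c, the p57 inhibitor of cyclin-dependent kinases and an imprinted gene, read 7.47, 6.54 and 5.92 FPKM in WT Reserve and 1.40, 1.76 and 1.07 in KO Reserve (log2 difference -1.67, SE 0.19, adjusted p = 0.000826). Rb1, the retinoblastoma protein that blocks entry into S phase, read 100.5, 114 and 95.6 FPKM in WT Reserve and 44.5, 42.4 and 38.7 in KO Reserve (log2 difference -1.28, SE 0.13, adjusted p = 0.000638). Cited2 fell by 1.62 on the log2 scale. Of 20 imprinted genes tested 12 were lower and none higher (median -0.62), and 8 of these fell on both scales; the count was 6 without WT Reserve replicate 2, and 7 without either WT Reserve replicate 3 or KO Reserve replicate 2. Cd81, a tetraspanin, fell by 0.81 and the transporter gene Slc22a18 by 1.06.

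Immediate early genes, which cells switch on within minutes of a stimulus and during tissue handling, were lower in 22 of 38 tested and higher in 1 (median -0.76). Ier2 read 136, 119.6 and 107 FPKM in WT Reserve and 33.5, 29.8 and 27.1 in KO Reserve (log2 difference -1.97, SE 0.15, adjusted p = 0.000219). Zfp36, tristetraprolin, which destabilizes cytokine messages, read 47.7, 49.5 and 47.2 FPKM in WT Reserve and 11.3, 12.6 and 9.20 in KO Reserve (log2 difference -2.04, SE 0.16, adjusted p = 0.000219). Fos read 82.3, 54.6 and 68.3 FPKM in WT Reserve and 13.8, 10.3 and 9.44 in KO Reserve, and Dusp1, a phosphatase of MAP kinases, fell by 2.23 on the log2 scale. Each of these had its groups apart, and 17 of the list fell on both scales. TGF-beta and BMP genes were lower in 11 of 23 tested and higher in 1 (median -0.50), including Id2, an inhibitor of E proteins, at 133, 121 and 104 FPKM in WT Reserve and 26.2, 36.4 and 15.6 in KO Reserve (log2 difference -2.22, SE 0.28, adjusted p = 0.00133), and the signal transducers Smad2 (log2 difference -1.16) and Smad1 (log2 difference -1.16).

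Interferon response genes were lower in KO Reserve in 46 of 75 tested, 38 of them on both scales, and none was higher as deposited (median -0.81). Interferons act through Stat and Irf factors that bind an interferon-stimulated response element (ISRE) near the start of their target genes. Ifitm1, an antiviral membrane protein, read 1021, 1118 and 574 FPKM in WT Reserve and 100.2, 129 and 105 in KO Reserve. Ms4a6b, a membrane protein of lymphoid and myeloid cells, read 24.5, 26.6 and 18.7 FPKM in WT Reserve and 3.03, 3.51 and 3.86 in KO Reserve (log2 difference -2.43, SE 0.18, adjusted p = 0.000219). Xaf1, a cofactor of cell death, read 55.2, 60.9 and 47.9 FPKM in WT Reserve and 8.07, 13.1 and 8.77 in KO Reserve, and the growth regulator Slfn2 read 9.82, 10.7 and 9.41 FPKM in WT Reserve and 2.005, 1.33 and 1.11 in KO Reserve. Irf1 itself, an interferon regulatory factor, read 40.0, 39.1 and 33.9 FPKM in WT Reserve and 12.48, 9.07 and 9.40 in KO Reserve (log2 difference -1.78, SE 0.17, adjusted p = 0.000461). The groups were apart in all of these. The fall count ran from 35 to 46 when 1 library was left out and was 16 with the neutrophil covariate, where the median was -0.93. Outside the reserve set the list median of the genotype difference was 0.11.

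Promoters of interferon genes were examined because these genes moved together. The core of an ISRE, GAAA followed by any 2 bases and GAAA, was searched on both strands in 300-base promoters of RefSeq genes on GRCm38.p6, from 250 bases before to 50 after the start. It occurs in 3.44% of 32851 promoters, and 3.97% of 8907 tested genes matched to a promoter hold it. Of 56 interferon genes matched, 25 hold it (44.6%), namely 11 of the 27 that fell on both scales (40.7%) and 14 of the other 29 (48.3%). The difference between these last shares was not tested. Of the genes that hold a match and fell on both scales, 4 are shown, with the matched letters in capitals. They have the smallest p outside a chromosome left out of the display, so genes with a smaller p may be missing:
Igtp (chr11:58199306-58199605, plus strand): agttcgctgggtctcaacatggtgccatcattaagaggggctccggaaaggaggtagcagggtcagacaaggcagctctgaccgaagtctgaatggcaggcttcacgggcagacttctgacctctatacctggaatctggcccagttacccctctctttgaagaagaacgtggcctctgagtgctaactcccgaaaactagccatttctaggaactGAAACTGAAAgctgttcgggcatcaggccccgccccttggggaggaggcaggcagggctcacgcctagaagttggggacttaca
Tgtp1 (chr11:48992197-48992496, minus strand): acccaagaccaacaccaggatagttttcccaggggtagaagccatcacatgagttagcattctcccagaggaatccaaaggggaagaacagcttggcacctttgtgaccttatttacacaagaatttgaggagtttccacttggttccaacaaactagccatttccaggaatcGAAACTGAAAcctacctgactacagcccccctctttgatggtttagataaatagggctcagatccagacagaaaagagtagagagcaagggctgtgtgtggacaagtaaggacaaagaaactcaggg
Tgtp2 (chr11:49064163-49064462, minus strand): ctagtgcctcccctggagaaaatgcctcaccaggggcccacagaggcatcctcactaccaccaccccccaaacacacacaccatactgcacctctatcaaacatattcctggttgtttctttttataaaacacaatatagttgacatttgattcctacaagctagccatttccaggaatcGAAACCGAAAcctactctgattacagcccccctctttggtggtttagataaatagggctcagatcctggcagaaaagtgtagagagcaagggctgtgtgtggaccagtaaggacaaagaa
Irgm1 (chr11:48871371-48871670, minus strand): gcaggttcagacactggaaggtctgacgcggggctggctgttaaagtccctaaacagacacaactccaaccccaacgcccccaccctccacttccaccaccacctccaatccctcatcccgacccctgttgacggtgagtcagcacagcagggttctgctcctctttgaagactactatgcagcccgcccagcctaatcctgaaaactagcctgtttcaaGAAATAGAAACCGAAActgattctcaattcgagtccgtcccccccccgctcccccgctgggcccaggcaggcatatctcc
These genes belong to the immunity-related GTPases that interferon gamma induces. Igtp read 26.8, 33.5 and 24.4 FPKM in WT Reserve and 8.81, 7.42 and 6.55 in KO Reserve (log2 difference -1.76, SE 0.18, adjusted p = 0.00062). Irgm1 read 58.7, 64.4 and 54.0 FPKM in WT Reserve and 30.5, 23.8 and 24.9 in KO Reserve (log2 difference -1.14, SE 0.15, adjusted p = 0.00151). Tgtp1 read 6.93, 12.8 and 8.12 FPKM in WT Reserve and 1.12, 0.623 and 1.84 in KO Reserve, and Tgtp2 58.5, 91.4 and 61.1 FPKM in WT Reserve and 16.6, 15.4 and 7.83 in KO Reserve. Tgtp1 and Tgtp2 are near-identical neighbours, so their separate levels are uncertain. The match starts 34 bases before the start in Igtp, 77 in Tgtp1 and 70 in Tgtp2, and Irgm1 holds 2 overlapping matches at 24 and 30 bases. A match is a description of letters, and factor binding was not measured.

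Antigen presentation genes were lower as well. Of 15 MHC class II genes tested 12 fell and 1 rose (median -1.34). The rise was Ifi30, a thiol reductase of antigen processing, which was called without WT Reserve replicate 2 or KO Reserve replicate 1 and lost without any one of the other 4 libraries. Cd74, the invariant chain that escorts class II molecules, read 245, 221 and 216 FPKM in WT Reserve and 22.9, 19.97 and 12.7 in KO Reserve. H2-Aa read 89.8, 51.5 and 57.8 FPKM in WT Reserve and 10.5, 7.55 and 4.74 in KO Reserve and H2-Eb1 30.9, 12.6 and 21.9 FPKM in WT Reserve and 2.68, 1.70 and 1.32 in KO Reserve, with log2 differences of -2.98 (SE 0.29) and -2.92 (SE 0.32). H2-DMb1, which helps load peptides, read 27.2, 19.5 and 18.5 FPKM in WT Reserve and 5.31, 7.32 and 4.70 in KO Reserve (log2 difference -1.74, SE 0.21, adjusted p = 0.00112). All 3 WT Reserve libraries were above the KO Reserve libraries in each of these genes. MHC class I genes fell in 15 of 26 and rose in 1, the chaperone gene Canx (median -0.77). Their leading members were Cd1d1, which presents lipids (log2 difference -1.62), H2-T23 (log2 difference -1.20), H2-K1 (log2 difference -1.13) and the immunoproteasome subunit Psmb8 (log2 difference -1.19), each with an SE of 0.12 to 0.16.

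Among the lineage lists, megakaryocyte and T and NK genes were lower in most members. Megakaryocyte genes were lower in 25 of 31 tested and higher in none (median -0.94), with 18 on both scales. Tbxas1, thromboxane synthase, read 44.5, 31.2 and 33.6 FPKM in WT Reserve and 5.12, 5.20 and 3.58 in KO Reserve (log2 difference -2.73, SE 0.20, adjusted p = 0.000219). Mmrn1, multimerin, read 18.3, 21.1 and 18.1 FPKM in WT Reserve and 5.11, 6.20 and 4.95 in KO Reserve, and the adaptor gene Lat, shared with T cells, read 46.9, 39.7 and 43.5 FPKM in WT Reserve and 13.3, 16.4 and 12.99 in KO Reserve. Outside the reserve set this list also leaned lower in the knockout, with a median of -0.39. T and NK genes fell in 16 of 23 (median -1.32), led by Trbc1 at 375, 366 and 322 FPKM in WT Reserve and 92.7, 104 and 91.6 in KO Reserve (log2 difference -1.87, SE 0.12, adjusted p = 0.000145) and Tcrg-C4 at 88.8, 112 and 87.5 FPKM in WT Reserve and 23.1, 29.1 and 24.9 in KO Reserve. Defining T cell genes were near the floor, with Cd3e at most 0.373 FPKM and Cd8a at most 0.336 in the 6 libraries. B lymphoid genes were lower in 11 of 34 and higher in 1 (median -0.39), with 7 lower on both scales, where 22% and 14% of all genes were lower. The count came to 6 or 7 lower without any one of WT Reserve replicates 1 and 3 and KO Reserve replicates 2 and 3. Cd37, a tetraspanin of B cells, read 212, 183 and 199.7 FPKM in WT Reserve and 112, 101 and 96.3 in KO Reserve (log2 difference -0.94, SE 0.12, adjusted p = 0.00134).

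Myeloid lists fell without a rise apart from the dendritic one. Monocyte and macrophage genes were lower in 17 of 27 (median -0.81), primary granule genes in 12 of 19 (median -0.91) and mast cell and basophil genes in 9 of 15 (median -0.88), while dendritic cell genes had 9 lower and 1 higher of 17 (median -1.15). Without WT Reserve replicate 1 the monocyte count was 11 and the mast cell count 5. Ms4a6c read 19.2, 19.8 and 13.4 FPKM in WT Reserve and 2.32, 1.799 and 1.96 in KO Reserve (log2 difference -2.60, SE 0.20, adjusted p = 0.000219). Lyz2, lysozyme, read 484, 377 and 617 FPKM in WT Reserve and 116, 128 and 84.4 in KO Reserve, and Tyrobp, an adaptor of activating receptors, read 297, 288 and 235 FPKM in WT Reserve and 87.0, 101 and 102 in KO Reserve (log2 difference -1.49, SE 0.14, adjusted p = 0.000414). Cpa3, the carboxypeptidase of mast cells, read 138, 165 and 135 FPKM in WT Reserve and 44.1, 38.3 and 25.8 in KO Reserve. The groups were apart in these 4 genes. Late neutrophil genes had a median of -1.14 but only 11 of 32 called, all lower, and their WT Reserve values spread widely. Lcn2, lipocalin 2, read 118, 98.8 and 217 FPKM in WT Reserve and 45.3, 51.0 and 34.2 in KO Reserve (log2 difference -1.65, SE 0.30, adjusted p = 0.00666), and Ltf read 337, 115 and 892 FPKM in WT Reserve and 65.3, 84.0 and 40.1 in KO Reserve, with adjusted p = 0.109.

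Red cell genes were the lineage group that rose. Of 29 red cell membrane genes 14 were higher and 3 lower, with a median of 0.51, and 13 were higher and 2 lower on both scales. Ank1, the ankyrin of the membrane skeleton, read 3.04, 1.85 and 2.53 FPKM in WT Reserve and 6.91, 9.50 and 12.46 in KO Reserve (log2 difference 1.59, SE 0.24, adjusted p = 0.00237). Aqp1, the water channel, read 16.4, 17.0 and 15.5 FPKM in WT Reserve and 34.8, 38.0 and 44.9 in KO Reserve (log2 difference 1.21, SE 0.15, adjusted p = 0.00118), and Kel, the Kell blood group protein, read 48.5, 70.1 and 57.4 FPKM in WT Reserve and 123, 145 and 176 in KO Reserve (log2 difference 1.32, SE 0.18, adjusted p = 0.00177). Epor read 28.2, 30.8 and 33.4 FPKM in WT Reserve and 58.1, 61.1 and 66.8 in KO Reserve. Every KO Reserve value exceeded every WT Reserve value in these genes. The count of rises was 8 without WT Reserve replicate 1, 9 without KO Reserve replicate 2 and 2 with the neutrophil covariate, where the median was 0.55. Of 22 heme synthesis genes 6 were higher and 3 lower (median 0.14). Blvrb, biliverdin reductase B, read 667, 762 and 716 FPKM in WT Reserve and 1368, 1535 and 1546 in KO Reserve (log2 difference 1.05, SE 0.11, adjusted p = 0.000668), Tspo2 read 92.6, 90.5 and 89.8 FPKM in WT Reserve and 171, 184 and 194 in KO Reserve (log2 difference 0.997, SE 0.11, adjusted p = 0.000826), and the porphyrin transporter gene Abcb6 read 18.6, 15.4 and 13.2 FPKM in WT Reserve and 30.1, 47.0 and 55.3 in KO Reserve, whereas Hmox2, a heme oxygenase, fell, with 176, 195 and 169 FPKM in WT Reserve and 85.7, 88.4 and 65.6 in KO Reserve. Without WT Reserve replicate 3 or either of KO Reserve replicates 2 and 3, 1 fall was called. Glrx5, which serves iron-sulfur cluster assembly, rose (log2 difference 0.99, SE 0.11, adjusted p = 0.000826), and Ncoa4, the receptor that sends ferritin to degradation, fell by 2.23.

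No globin gene was called. The list had 5 genes tested, of which Hebp1 encodes a heme-binding protein and not a globin. The values of all 5 overlapped between the groups, with Hba-a1 at 148, 343 and 74.2 FPKM in WT Reserve and 163, 179.8 and 321 in KO Reserve (adjusted p = 0.658). Globin replicates spread widely, as with Hbb-bs at 176, 463 and 41.1 FPKM in WT Reserve (SE 1.085), so a difference could be missed. Hba-a1 and Hba-a2 are near-identical copies whose split is uncertain. Of 16 erythroid transcription factors 2 were higher and 2 lower as deposited (median 0.26), and 6 and 2 after quantile normalization. Klf1, the main activator of red cell genes, read 169.5, 159 and 206 FPKM in WT Reserve and 302, 267 and 254 in KO Reserve (log2 difference 0.62, SE 0.14, adjusted p = 0.0109), while Nfe2, shared with megakaryocytes, read 197, 209.5 and 178 FPKM in WT Reserve and 84.4, 72.7 and 64.6 in KO Reserve (log2 difference -1.39, SE 0.14, adjusted p = 0.000529).

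Genes of the ribosome and the respiratory chain were higher in KO Reserve, by small and even amounts. Large ribosomal subunit genes rose in 36 of 46 (median 0.59) and small subunit genes in 28 of 33 (median 0.59), with none lower. After quantile normalization 24 and 17 were higher, with medians of 0.31. Rps2 read 496, 481 and 479.9 FPKM in WT Reserve and 894, 1008 and 1165 in KO Reserve (log2 difference 1.06, SE 0.12, adjusted p = 0.000919), Rps12 519, 548 and 468 FPKM in WT Reserve and 865, 1127 and 1495 in KO Reserve (log2 difference 1.15, SE 0.19, adjusted p = 0.00353), and Rpl23 1039, 1117 and 918 FPKM in WT Reserve and 1503, 1708 and 2057 in KO Reserve (log2 difference 0.77, SE 0.14, adjusted p = 0.0058). Without WT Reserve replicate 3 the counts were 17 and 11, and without KO Reserve replicate 2 they were 17 and 13. Without WT Reserve replicate 1 they were 22 and 16, and without KO Reserve replicate 3 they were 23 and 17. No ribosomal gene of these lists was called with the neutrophil covariate, where the medians were 0.47 and 0.50.

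Complex I, the first enzyme of the respiratory chain, had 28 of 37 subunit genes higher (median 0.54), and complex IV, cytochrome oxidase, had 9 of 11 higher and 1 lower (median 0.68). Ndufa5 read 522, 619 and 500.0 FPKM in WT Reserve and 889.9, 1012 and 1146 in KO Reserve (log2 difference 0.89, SE 0.14, adjusted p = 0.00263), and Cox7c read 463, 553 and 465 FPKM in WT Reserve and 829, 921 and 1115 in KO Reserve (log2 difference 0.94). The fall was Cox4i2, the isoform induced at low oxygen, at 5.10, 4.10 and 2.68 FPKM in WT Reserve and 1.07, 0.579 and 1.05 in KO Reserve (log2 difference -1.36, SE 0.24, adjusted p = 0.00431). ATP synthase genes rose in 10 of 16 (median 0.46), led by the inhibitor Atpif1 (log2 difference 1.03), and complex II and III genes in 6 of 14 (median 0.29). Messages of the mitochondrial genome rose in 6 of 12 (median 0.50), such as mt-Nd2 at 824, 828 and 732 FPKM in WT Reserve and 1303, 1655 and 1839 in KO Reserve (log2 difference 0.995, SE 0.15, adjusted p = 0.00215). Mitochondrial ribosomal protein genes rose in 25 of 75 and fell in 1 (median 0.26), led by Mrpl52 (log2 difference 1.07). The complex I count was 12 to 16 without any one of WT Reserve replicates 1 and 3 and KO Reserve replicates 2 and 3, the ATP synthase count was 5 or 6 without WT Reserve replicates 1 or 3 or KO Reserve replicate 2, and the mitochondrial ribosomal count was 8 to 11 without the same 4 libraries as complex I. After quantile normalization the complex I, complex IV and ATP synthase counts were 27, 8 and 6, with medians of 0.39, 0.39 and 0.19. With the neutrophil covariate no gene of these 3 lists was called higher, while their medians were 0.46, 0.64 and 0.35. Many of these genes have short transcripts, and across all genes the median difference was 0.14 for transcripts of 300 to 600 bp and -0.29 for those of 2000 to 4000 bp. With the trend along length removed, 32 complex I, 41 large and 31 small ribosomal subunit genes were higher.

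**Figure D4:**
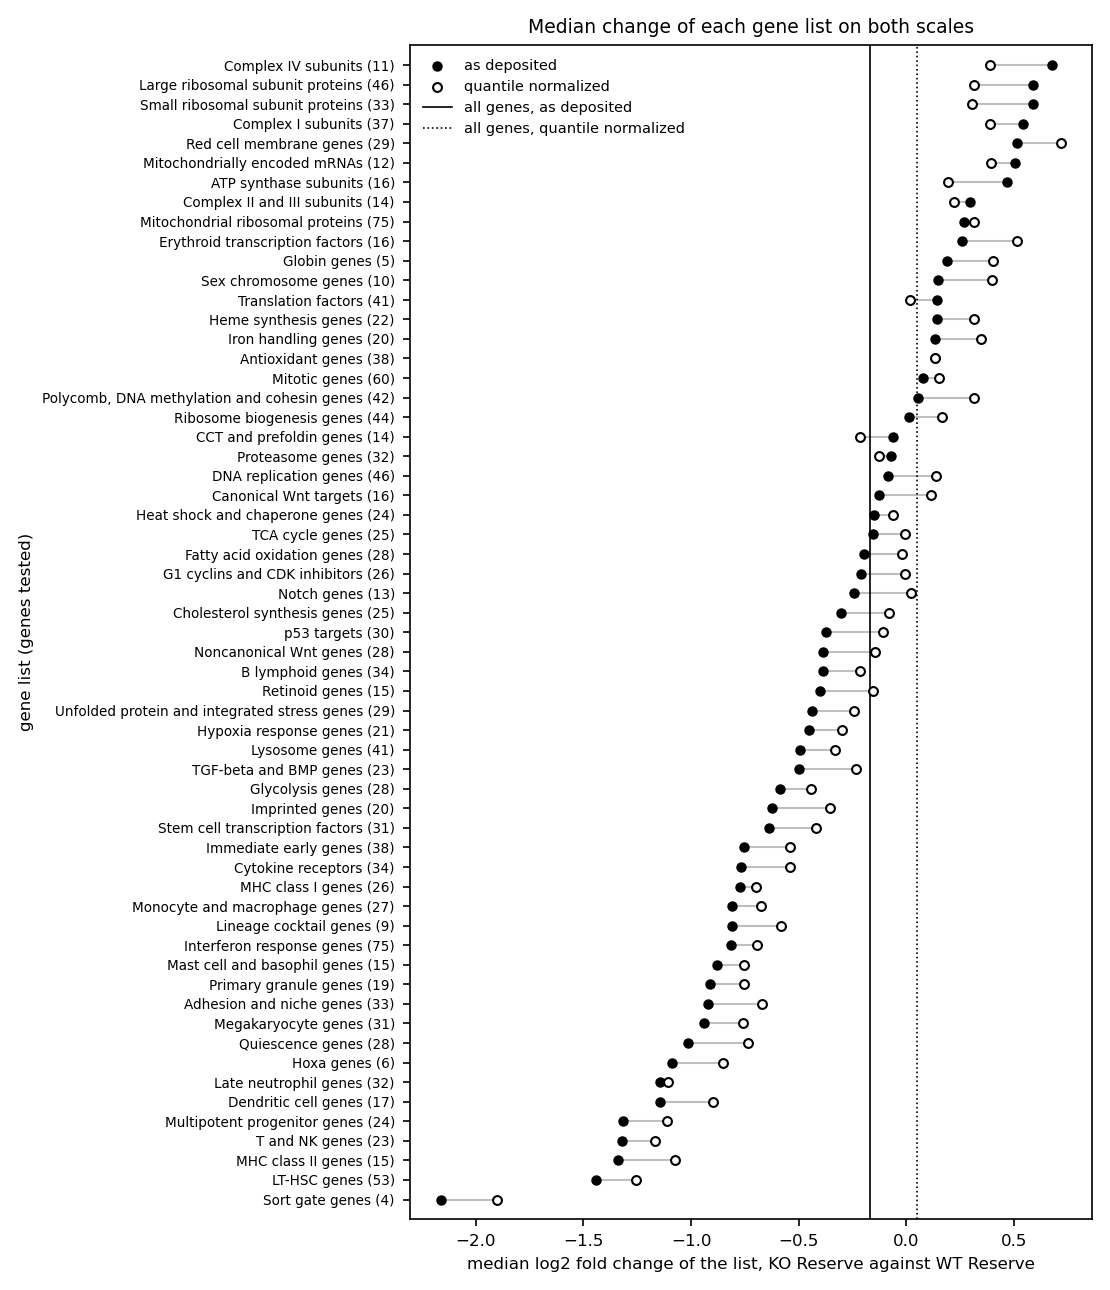
Median log2 fold change of each list with at least 3 genes tested (number in brackets), as deposited and after quantile normalization, with vertical lines at the medians of all genes on the 2 scales. Sort gate, LT-HSC and MHC class II genes stand at the bottom with medians of -2.16, -1.44 and -1.34, and complex IV and ribosomal proteins at the top with 0.68 and 0.59.

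Glycolysis genes went opposite to the respiratory chain: 15 of 28 were lower and none higher (median -0.59), with 14 lower on both scales. Ldhb, a lactate dehydrogenase subunit, read 58.1, 62.0 and 44.6 FPKM in WT Reserve and 14.2, 15.2 and 9.35 in KO Reserve (log2 difference -2.02, SE 0.21, adjusted p = 0.000668). Pkm, pyruvate kinase, read 115, 62.2 and 121 FPKM in WT Reserve and 28.3, 22.6 and 22.3 in KO Reserve, Pgam1 114, 113 and 107 FPKM in WT Reserve and 57.7, 49.8 and 45.4 in KO Reserve and the glucose transporter gene Slc2a1 4.14, 4.10 and 5.65 FPKM in WT Reserve and 0.788, 0.605 and 0.519 in KO Reserve, the last passing the filter only through WT Reserve. The groups were apart in these 4 genes. Hypoxia genes were lower in 9 of 21 and higher in 1 (median -0.45), including Car9, carbonic anhydrase IX (log2 difference -1.25, SE 0.24). Citrate cycle genes had 3 of 25 lower, below the share of 22% of all genes. Their median of -0.15 turned to 0.05 with median-ratio scaling and to 0.13 with the length trend removed. Fatty acid oxidation genes had 8 of 28 lower (median -0.20), 3 of them on both scales and 3 or 4 without any one of WT Reserve replicates 1 and 3 and KO Reserve replicates 2 and 3, and their median was 0.07 with the length trend removed. Acadm, the medium-chain dehydrogenase, fell in both fits (log2 difference -1.19, SE 0.19, adjusted p = 0.00304).

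Lysosome genes were lower in 21 of 41 and higher in 1 (median -0.49). Laptm5, a lysosomal membrane protein of blood cells, read 135, 83.5 and 139 FPKM in WT Reserve and 28.0, 22.2 and 23.9 in KO Reserve (log2 difference -2.19, SE 0.21, adjusted p = 0.000461), and the cathepsin gene Ctsh read 27.6, 19.1 and 18.2 FPKM in WT Reserve and 2.23, 3.60 and 1.35 in KO Reserve. Antioxidant genes were mixed, with 11 of 38 higher and 6 lower (median 0.13). The metallothionein genes Mt2, at 136, 147 and 159 FPKM in WT Reserve and 360.3, 427 and 485 in KO Reserve, and Mt1, at 576, 633 and 604 FPKM in WT Reserve and 1355, 1551 and 1781 in KO Reserve, rose by log2 1.51 and 1.36, while the glutathione transferase genes Gstm1 (log2 difference -1.87) and Mgst1 (log2 difference -1.69) fell. The count of rises in the list was 7 without any one of WT Reserve replicates 1 and 3 and KO Reserve replicates 2 and 3. Stress lists leaned weakly, and heat shock genes were near the shares of all genes (8.29% higher and 22% lower). Genes of the unfolded protein and integrated stress responses were lower in 10 of 29 (median -0.44; 5 or 6 without any one of the same 4 libraries), p53 targets were lower in 11 of 30 and higher in 3 (median -0.37, and 6 each way after quantile normalization), and heat shock genes had 5 of 24 lower and 2 higher (median -0.15, and 0.04 with median-ratio scaling). Without any one of those 4 libraries the falls were 5 to 7 among p53 targets and 1 among heat shock genes. Of the p53 list, the noncoding Pvt1 rose (23.3, 25.6 and 22.9 FPKM in WT Reserve and 50.4, 53.9 and 52.7 in KO Reserve). Sesn1, sestrin 1, fell (31.3, 39.6 and 38.1 FPKM in WT Reserve and 15.97, 9.996 and 10.8 in KO Reserve).

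Cell cycle genes were mostly not called. Of 60 mitotic genes 10 were higher and 2 lower, with a median of 0.08, and 10 and 1 on both scales. Top2a, topoisomerase II alpha, read 177, 165 and 157 FPKM in WT Reserve and 282, 288 and 312 in KO Reserve (log2 difference 0.82, SE 0.11, adjusted p = 0.00167), and Cenpa, the centromeric histone, read 395, 409 and 398 FPKM in WT Reserve and 649, 619 and 624 in KO Reserve (log2 difference 0.65, SE 0.10, adjusted p = 0.00261). Kif20a, a mitotic kinesin, fell (15.1, 16.3 and 23.9 FPKM in WT Reserve and 10.2, 7.25 and 5.21 in KO Reserve; log2 difference -1.20, SE 0.26, adjusted p = 0.0101). Without KO Reserve replicate 2 there were 5 rises, and none with the neutrophil covariate. Replication genes had 8 of 46 higher and 4 lower, with a median of -0.09 as deposited and 0.14 once quantile normalized. Without KO Reserve replicate 2 or 3 only 2 of these rises were called, and 3 without WT Reserve replicate 1. G1 cyclins and CDK inhibitors had 8 of 26 lower and 1 higher (median -0.21), including the cyclin gene Ccnd2 at 50.0, 51.7 and 43.8 FPKM in WT Reserve and 23.3, 22.3 and 21.6 in KO Reserve (log2 difference -1.08, SE 0.14, adjusted p = 0.00124). Outside the reserve set the mitotic list had a median genotype difference of 0.43. Tested as the difference of the 2 genotype differences, 3 of 60 listed mitotic genes were higher and 17 lower. These counts are near the shares of all genes in that test, 8.03% higher and 22.9% lower.

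Wnt genes were examined because other groups of the series carry a Wnt5a label. Of 28 noncanonical Wnt genes 4 were higher and 6 lower as deposited (median -0.39), and 4 and 2 on both scales. As deposited 8.29% of all genes were higher and 22% lower. Fzd7, a Frizzled receptor counted among the 4 rises, read 0.717, 0.859 and 0.684 FPKM in WT Reserve and 2.40, 3.83 and 2.75 in KO Reserve. It passed the filter only through KO Reserve, so no test is given and its place in that count carries no weight. Daam1, a formin of the planar polarity pathway, read 2.41, 3.13 and 2.60 FPKM in WT Reserve and 5.65, 6.05 and 5.89 in KO Reserve (log2 difference 0.89, SE 0.17, adjusted p = 0.00595). Cdc42, a small GTPase of cell polarity, read 399, 558 and 409 FPKM in WT Reserve and 327, 249 and 211 in KO Reserve (log2 difference -0.80, SE 0.19, adjusted p = 0.0159). Without KO Reserve replicate 2, 1 rise and no fall was called in this list, and without WT Reserve replicate 1, WT Reserve replicate 3 or KO Reserve replicate 3 the falls were 1 or 2. Of 16 canonical Wnt targets only Tcf7, a nuclear effector of the pathway, was called, at 48.9, 31.1 and 48.8 FPKM in WT Reserve and 13.1, 17.5 and 14.2 in KO Reserve (log2 difference -1.45, SE 0.21, adjusted p = 0.00215), and the list median of -0.13 turned to 0.11 with quantile normalization. Notch genes fell in 6 of 13 (median -0.25, and 0.02 with quantile normalization), led by the fringe genes Mfng (log2 difference -1.56) and Lfng (log2 difference -1.60), with 3 falls without WT Reserve replicate 1 or 3.

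The largest differences were also named by a fixed rule. Of those described here Ltb is in the LT-HSC list and Emcn in the adhesion list, and the others are in no list. The rule took the 15 largest rises and falls among named genes that were called on both scales, had groups apart and reached 5 FPKM on average in the higher group. Ltb, lymphotoxin beta, read 75.9, 78.5 and 38.2 FPKM in WT Reserve and 5.60, 7.18 and 6.94 in KO Reserve (log2 difference -3.04). Serpina3g, a protease inhibitor of haematopoietic progenitors, read 206, 199 and 148 FPKM in WT Reserve and 25.0, 23.8 and 17.0 in KO Reserve (log2 difference -3.02, SE 0.19, adjusted p = 0.000145). Emcn, endomucin, a surface sialomucin of LT-HSC, read 10.9, 16.1 and 5.14 FPKM in WT Reserve and 0.434, 0.972 and 0.499 in KO Reserve, and passed the filter only through WT Reserve. The groups were apart in all 3. Among the rises, Tnfaip2, a cytokine-induced gene, read 96.6, 77.5 and 88.9 FPKM in WT Reserve and 194, 269 and 354 in KO Reserve (log2 difference 1.59, SE 0.21, adjusted p = 0.00155), Smim1, which carries the Vel blood group, read 135, 157 and 124 FPKM in WT Reserve and 311, 376 and 432 in KO Reserve, and Tac2, a tachykinin gene listed at 0 in all WT and KO Ctrl libraries, read 3.54, 3.95 and 3.19 FPKM in WT Reserve and 11.6, 12.7 and 10.3 in KO Reserve. Gml2 rose as well, at 4.62, 5.32 and 6.08 FPKM in WT Reserve and 16.2, 18.6 and 22.2 in KO Reserve (log2 difference 1.65, SE 0.18, adjusted p = 0.000733). The other named rises were Gnat1, Rec114, Adamts3 and the small RNA genes Mir3068, Mir6240, Snord8, Snora78 and Snord100. Mir6240 and Snora78 were not called without any one of the WT Reserve libraries or without KO Reserve replicate 2, nor Snord8 without WT Reserve replicate 3 or KO Reserve replicate 3.

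Some of the most extreme values came from very short genes. Mir6924 read 290, 330 and 670 FPKM in WT Reserve and Mir130c 252, 172 and 116, and both were listed at 0 in all 3 KO Reserve libraries, as was the kallikrein gene Klk1b22, at 13.7, 8.07 and 6.82 in WT Reserve. In the opposite direction Mir3068 read 0.013, 0.006 and 0.111 FPKM in WT Reserve and 52.5, 12.996 and 26.8 in KO Reserve. Mir130c overlaps Kdelc2, and Snora78 lies inside Rps2, so reads of host and guest cannot be separated in these unstranded libraries. The same holds for named genes with an expressed neighbour on the opposite strand, such as Smim1 with Lrrc47, Cd27 with Vamp1, Cd34 with Gm16897 and Hoxa5 with Hoxaas3. Tnfsf13os, antisense to Tnfsf12 and Tnfsf13, read 10.7, 13.9 and 9.69 FPKM in WT Reserve and 0.119, 0.588 and 0.173 in KO Reserve with the same limit. Mir6924, Mir130c, Klk1b22, Mir3068 and Tnfsf13os each passed the filter only through the group where they are high. Among transcripts under 300 bp, 67 of 644 were higher and 18 lower, with a median of 0.38.

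Sex chromosome genes differed between the groups. Xist, which silences 1 X chromosome in female cells, read 0.802, 0.015 and 0.186 FPKM in WT Reserve and 4.99, 8.64 and 8.59 in KO Reserve. It passed the filter only through the 3 KO Reserve libraries and was not tested when any one of them was left out, so no test is given. The Y-linked genes Eif2s3y, at 76.3, 98.9 and 89.1 FPKM in WT Reserve and 47.1, 37.3 and 26.1 in KO Reserve (log2 difference -1.27, SE 0.22, adjusted p = 0.00392), and Ddx3y, at 21.5, 27.9 and 20.8 FPKM in WT Reserve and 14.01, 13.6 and 14.2 in KO Reserve (log2 difference -0.69, SE 0.16, adjusted p = 0.0144), were lower in KO Reserve. Kdm5d was lower (log2 difference -0.64, SE 0.21, adjusted p = 0.0471), and Uty was not called (adjusted p = 0.18). Ddx3y and Kdm5d were not called after quantile normalization, nor was Ddx3y without KO Reserve replicate 2 or Kdm5d without any one library except WT Reserve replicate 2. Every library held transcripts of Y-linked genes, and the sex makeup of the libraries and the genotype cannot be told apart here. Without genes on chromosomes X and Y 1024 genes were higher and 2703 lower.

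Whether the reserve difference exceeds the genotype difference elsewhere was tested with limma over 14285 genes as (KO Reserve minus WT Reserve) minus (KO Ctrl minus WT). It was higher for 1147 genes (8.03%) and lower for 3268 (22.9%), and with quantile normalization for 2155 (15.1%) and 1969 (13.8%). Of 55 listed LT-HSC genes 43 were lower and none higher, and of 81 listed interferon genes 48 were lower and 1 higher. Of 37 listed complex I genes 31 were higher. Ctsh read a mean of 2.14 FPKM in WT and 5.25 in KO Ctrl, opposite to the reserve fall, and its difference was -3.77 (SE 0.48, adjusted p = 3.94e-05). H2-Aa likewise read 1.98 and 4.88 (log2 difference -3.85, SE 0.44, adjusted p = 1.49e-05). Of the higher genes, Hpn, a membrane serine protease, rose in the reserve libraries from 43.3 to 51.0 FPKM to 82.1 to 114.6, while WT had 2.55 to 4.84 and KO Ctrl 0.714 to 1.19 (log2 difference 2.13, SE 0.33, adjusted p = 0.000204). Cited4, a transcriptional coregulator, followed the same order (log2 difference 1.99, SE 0.24, adjusted p = 1.88e-05).

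**Figure D5:**
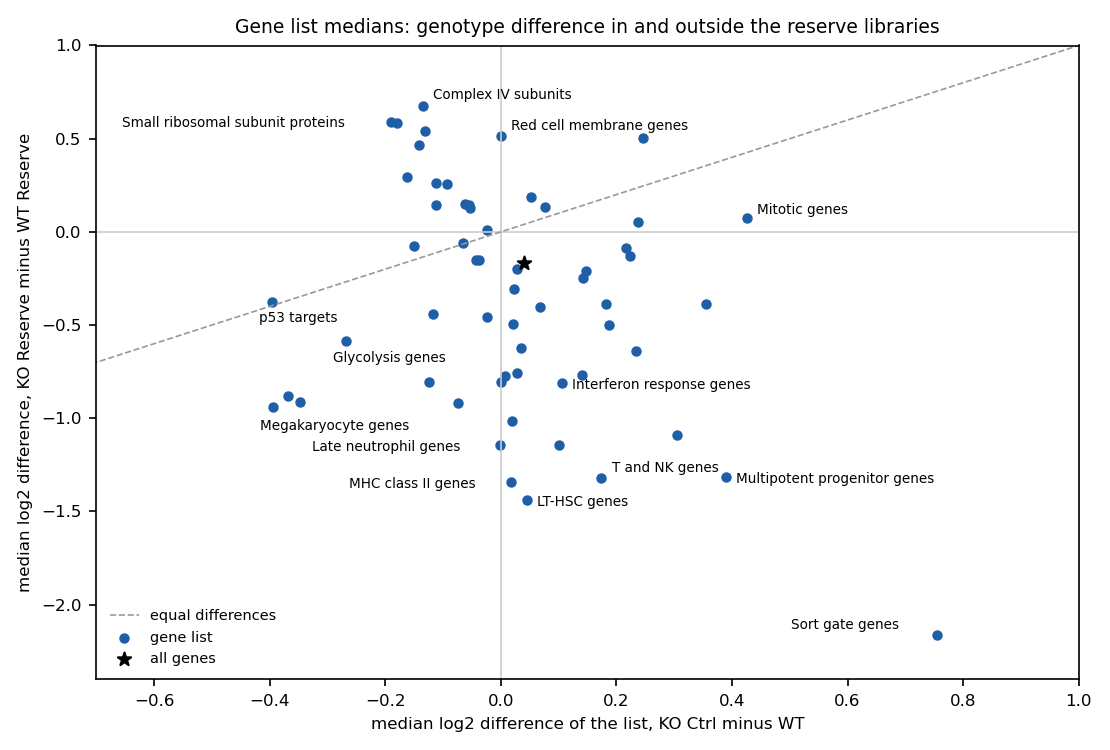
Each point is 1 of 59 gene lists, with its median log2 difference outside the reserve set (KO Ctrl minus WT) on the horizontal axis and in the reserve set (KO Reserve minus WT Reserve) on the vertical axis, a dashed line marking equal differences and a star all genes. LT-HSC genes lie at 0.04 outside the reserve set and -1.44 within it, and the sort gate genes at 0.75 and -2.16.

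The noncoding transcript AA465934 (ENSMUSG00000093483, chromosome 11, 83291699 to 83294632, plus strand, GRCm38) was singled out from earlier results of these data. It read 21.6, 20.6 and 15.7 FPKM in WT Reserve and 1028, 1142 and 1454 in KO Reserve (log2 difference 5.89, SE 0.17, adjusted p = 1.26e-06). The order was opposite outside the reserve set, with 156.5, 178.2 and 188.2 FPKM in WT and 4.44, 3.25 and 2.18 in KO Ctrl, and the difference of differences was 11.28 (SE 0.38, adjusted p = 8.59e-11). Eif5al3-ps, a processed pseudogene on chromosome 5 chosen after its values were seen, showed the same order: 5.14, 3.94 and 1.12 FPKM in WT Reserve and 386, 322 and 263 in KO Reserve, 400.3 to 417.1 in WT and 0.623 to 1.32 in KO Ctrl. A pseudogene shares sequence with its parent gene, so its level is uncertain. KO Ctrl and WT Reserve were low and WT and KO Reserve high for both transcripts, which is not the order of the genotype labels.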

How the data were processed

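Per the labels, LT-HSC were sorted into plates and libraries used SMARTer ultra low input and Nextera chemistry, which is not stranded. Tools named in the submitters' processing notes are TopHat2 2.0.10, CASAVA 1.8.2 and Cufflinks, on mm10. The authors deposited 1 table of FPKM for 44349 genes, a unit taken from the values, since the header does not name it. Positions and symbols came from GENCODE M21 on GRCm38, which matched 43938 identifiers.

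Values of the 6 reserve libraries were analysed as log2(FPKM + 1) for genes with at least 1 FPKM in 3 libraries. Counts of called genes, in lists and in all, include genes that passed this filter only through the group where they are high. 10 genes with 14 missing cells were left out. limma 3.58.1 in R 4.3.3 was fitted with 1 mean per group, an intensity trend and robust moderation, and again after quantile normalization. The difference of genotype differences was fitted over 18 libraries. Plots used Python 3.11.15, pandas 2.3.3, numpy 2.4.6 and matplotlib 3.10.9.

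The members and the 60 gene lists (1967 entries, 1473 distinct genes tested) were chosen with earlier results of these data known. Named genes were the 5 with the smallest p of each list, the sort gate, Hoxb and sex chromosome genes, the 15 largest rises and falls, and the 5 largest interactions per direction. Others (Cited2, Hhex, Etv6, Irf1, Ltf, Hoxaas3, Igtp, Irgm1, Tgtp1, Tgtp2, Eif5al3-ps and the single rises and falls of lists) were chosen after their values were seen. Depth was inferred from the steps between low values, and floors and counts cover counting error only. The very short mt-Ts1 held 32% to 71.3% of the FPKM sum, so no scaling to that sum was used.

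On simulated data with 12436 genes, 100 were changed 2-fold and 100 4-fold, in both directions and not at the lowest levels. The 6-library fit recovered 64% of 2-fold and 89% of 4-fold changes, with 8 false calls. The real data have many more calls and a shifted median, which the simulation did not hold, so recovery there may differ. Alternatives were other scalings, pseudocounts, filters and moderation, library weights, a fit of all 18 libraries, a replicate block, a minimum change, removal of a length trend, a neutrophil covariate and leaving out each library. Some genes of the lists are not reported here by name.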

Additional observations from a re-analysis of the deposited data

Results flagged for a closer look

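For 11 named genes the genotype difference in the reserve libraries differed from that between KO Ctrl and WT by limma's test of the difference itself, with p adjusted over 14285 genes. The differences below are log2 values, reserve minus non-reserve. The comparisons share no library.

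The positive differences were 2.13 for Hpn (adjusted p = 0.000204), 2.00 for Mylk3 (0.000933), 1.99 for Cited4 (1.88e-05), 1.95 for Xist (0.000541) and 1.81 for Smim1 (1.61e-05). Mylk3, a myosin light chain kinase, read 14.4, 16.7 and 15.2 FPKM in WT Reserve and 17.4, 22.03 and 25.7 in KO Reserve, against 3.05 to 5.40 in WT and 0.174 to 1.11 in KO Ctrl. Xist read 2.46 to 2.76 FPKM in WT and 3.64 to 6.54 in KO Ctrl. Smim1 read 10.5 to 12.9 FPKM in WT and 7.95 to 9.89 in KO Ctrl.

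AA465934 had a difference of 11.28 (adjusted p = 8.59e-11).

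The negative differences were -11.73 for Mir6924 (adjusted p = 0.0449), -7.44 for Mir130c (8.97e-06), -4.85 for Tnfsf13os (5.83e-07), -3.85 for H2-Aa (1.49e-05) and -3.77 for Ctsh (3.94e-05). Mir6924 was listed at 0 in 2 WT libraries and 1 KO Ctrl library, and reached 370.4 FPKM in WT and 558.1 in KO Ctrl. Mir130c read 217 to 394 FPKM in WT and 180 to 743 in KO Ctrl. Tnfsf13os read 0.655 to 1.03 FPKM in WT and 2.69 to 7.66 in KO Ctrl.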

How the results depend on the processing

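No named gene called as deposited was called in the opposite direction in any alternative, but the balance of counts changed. Named genes that were not called could change sign, as Tcf7l2 did (-0.26 as deposited and 0.02 after quantile normalization). Falls outnumbered rises as deposited and not after quantile normalization, and with median-ratio scaling noncanonical Wnt genes went from 4 higher and 6 lower to 6 and 2, heat shock genes from 2 and 5 to 5 and 2 and fatty acid oxidation genes from 0 and 8 to 4 and 3. Depth limits genes near 0.1 FPKM, and log2(FPKM + 1) compresses them. With 3859 called genes in all as deposited (1056 higher, 2803 lower), totals were 2459 without a filter (614 higher, 1845 lower), 6644 with library weights (1963, 4681), 5842 with all 18 libraries fitted (1747, 4095), 1492 with a minimum change of 1 (172, 1320) and 471 with the neutrophil covariate (54, 417). Quantile normalization gave 1944 higher and 1830 lower, so 51.5% of calls were higher in place of 27.4%. Median-ratio scaling gave 1737 higher (46.5%), and removal of the length trend 1736 higher and 1837 lower. Leaving out 1 library gave totals of 2202 to 3774, with 421 to 1063 higher and 1678 to 2828 lower. After quantile normalization these were 1908 to 3450, 828 to 1742 and 1080 to 1730, with 2356 (1182 higher, 1174 lower) without WT Reserve replicate 1, 2358 (1162, 1196) without WT Reserve replicate 3 and 2060 (920, 1140) without KO Reserve replicate 3. The difference of genotype differences went from 1147 higher and 3268 lower to 2155 and 1969 with quantile normalization, and leaving out 1 library gave totals of 3627 to 4841. The summed neutrophil transcripts differed by -1.26 on the log2 scale, and by -0.76 to -1.50 when 1 library was left out.

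With replicate number as a block, 3131 genes were called (753 higher, 2378 lower), and 2896 with quantile normalization (1359, 1537), while the difference of genotype differences had 4389. Deviations of same-numbered libraries had correlations of -0.10, -0.000033 and -0.056. With 3 libraries per group these values cannot settle whether the numbers pair the libraries.

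Of 271 named genes called as deposited, 251 kept their call after quantile normalization and 92 with the neutrophil covariate.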
